A study of Macaca mulatta with 30 samples.

Results

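The genes described here are 5 products of the exocrine pancreas that act on dietary fat: pancreatic lipase (PNLIP), the pancreatic lipase related proteins PNLIPRP1 and PNLIPRP2, colipase (CLPS) and pancreatic phospholipase A2 (PLA2G1B). They were selected on their measured signal in pancreas and, for PLA2G1B, in testis. Every probe set annotated with exactly 1 of these symbols was taken, which gave 7 of 52766 probe sets and 5 of the 14132 genes that had a probe set of 1 symbol. PNLIPRP2 had 3 probe sets and each other gene had 1. The arrays held RNA of rhesus macaque pancreas, testis, cerebral cortex and thymus and of an immortalized fibroblast line. Each of 3 centers (Oregon, Nebraska and Yerkes) labelled 2 aliquots of every RNA for the Affymetrix rhesus GeneChip, which gave 30 arrays, 6 per tissue. Each tissue was 1 RNA sample, so the arrays were technical replicates and the spread between them was not that between animals. The sources used here gave no age or treatment of the donor animals. The fibroblast RNA came from Nebraska, the cerebral cortex RNA from Yerkes and the pancreas, testis and thymus RNA from Oregon.

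Acinar cells store digestive enzymes in zymogen granules and release them into the duodenum when secretin and cholecystokinin rise after a meal. Pancreatic lipase splits dietary triglyceride into fatty acids and monoglyceride, but bile salts displace it from the fat droplet, and colipase anchors it there. Pancreatic phospholipase A2 is secreted as a proenzyme that trypsin activates, and it cleaves the fatty acid at the middle position of phospholipids. In the reference annotation (T2T-MMU8v2.0) PNLIPRP3, PNLIP, PNLIPRP1 and PNLIPRP2 followed each other directly among the protein coding genes. CLPS, CLPSL1 and CLPSL2 did the same elsewhere in that annotation. The probe sets of PLA2G1B and 1 of those of PNLIPRP2 carried the suffix that Affymetrix gives to probes matching more than 1 transcript, so signal shared with related transcripts could not be separated there.

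All values below are deposited signals on the log2 scale, where a difference of 1 is a doubling. Levels of different probe sets depend on their probes, so tissues were compared within a probe set only. The median signal of an array lay between 6.18 and 6.81 in pancreas and between 5.95 and 6.76 in the other tissues, and at each center both pancreas arrays had the highest medians. The 3' probe set of the actin control ACTB exceeded the 5' one by 1.81 ± 0.467 in pancreas (SD, n = 6 arrays), 0.745 ± 0.337 in testis, 0.504 ± 0.252 in cerebral cortex, 2.00 ± 0.552 in fibroblast and 0.244 ± 0.445 in thymus. The paper rated the pancreas arrays as of lower quality by their scaling factors and standard errors, and advised caution with them. The part of these differences in the results was not tested. Of 16 measured genes of acinar cells, 15 were called higher in pancreas, and the exception was the ribonuclease RNASE1, which was highest in cerebral cortex. A gene was called higher when the limma adjusted p was under 0.05 against every other tissue and it exceeded the nearest one by at least 1, a rule met in pancreas by 1.29% of all probe sets. A gene with several probe sets was represented by its leading one, that of the highest mean over all arrays, and the p given is the largest of its contrasts unless a contrast is named. For the acinar genes CUZD1 and REG1B another probe set was not called. The testis label was borne by all 5 measured genes of testis somatic cells and by 4 of 8 germ cell genes. The sperm genes PRM1, ACR and ODF1 were not above the other tissues.

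Pancreas had the highest signal of all 7 probe sets, with no overlap with any other tissue. These levels chose the genes and are given without a test. Pancreatic lipase, the main enzyme of triglyceride digestion, had a lowest, median and highest PNLIP signal of 13.96, 14.24 and 14.50 in pancreas. In testis the values were 5.36, 5.47 and 6.05. They were 4.72, 5.11 and 5.44 in cerebral cortex, 4.70, 5.00 and 5.35 in fibroblast and 4.80, 4.96 and 5.68 in thymus. Every pancreas array was therefore far above every other array, and the PNLIP signal was below the array median on all 24 arrays of the other tissues. The mean was 14.23 in pancreas and 5.62 in testis, the next tissue, a difference of 8.60 (SE 0.0819) or 389-fold on the linear scale. Background signal makes such folds smaller than the ratio of the transcripts. In RNA from whole tissue, fewer cells of a type and less RNA per cell cannot be told apart.

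Colipase is the cofactor without which pancreatic lipase is displaced by bile salts. CLPS stood at 14.46, 14.57 and 15.02 in pancreas (lowest, median and highest), against 6.17, 6.33 and 7.16 in cerebral cortex. Its signal was 5.78, 5.94 and 6.74 in testis. The corresponding values were 5.89, 6.24 and 6.91 in fibroblast and 5.75, 6.05 and 6.95 in thymus. The mean difference from cerebral cortex, the next tissue, was 8.13 (SE 0.0752). On the pancreas arrays CLPS was within 0.0597 to 0.271 of the brightest probe set of the array. Whether an upper limit held the reading down was not tested. Unlike PNLIP, CLPS was not below the array median on any of the 6 cerebral cortex arrays, although it lay below it on 5 of 6 testis arrays, 1 of 6 fibroblast arrays and 3 of 6 thymus arrays.

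**Figure D1:**
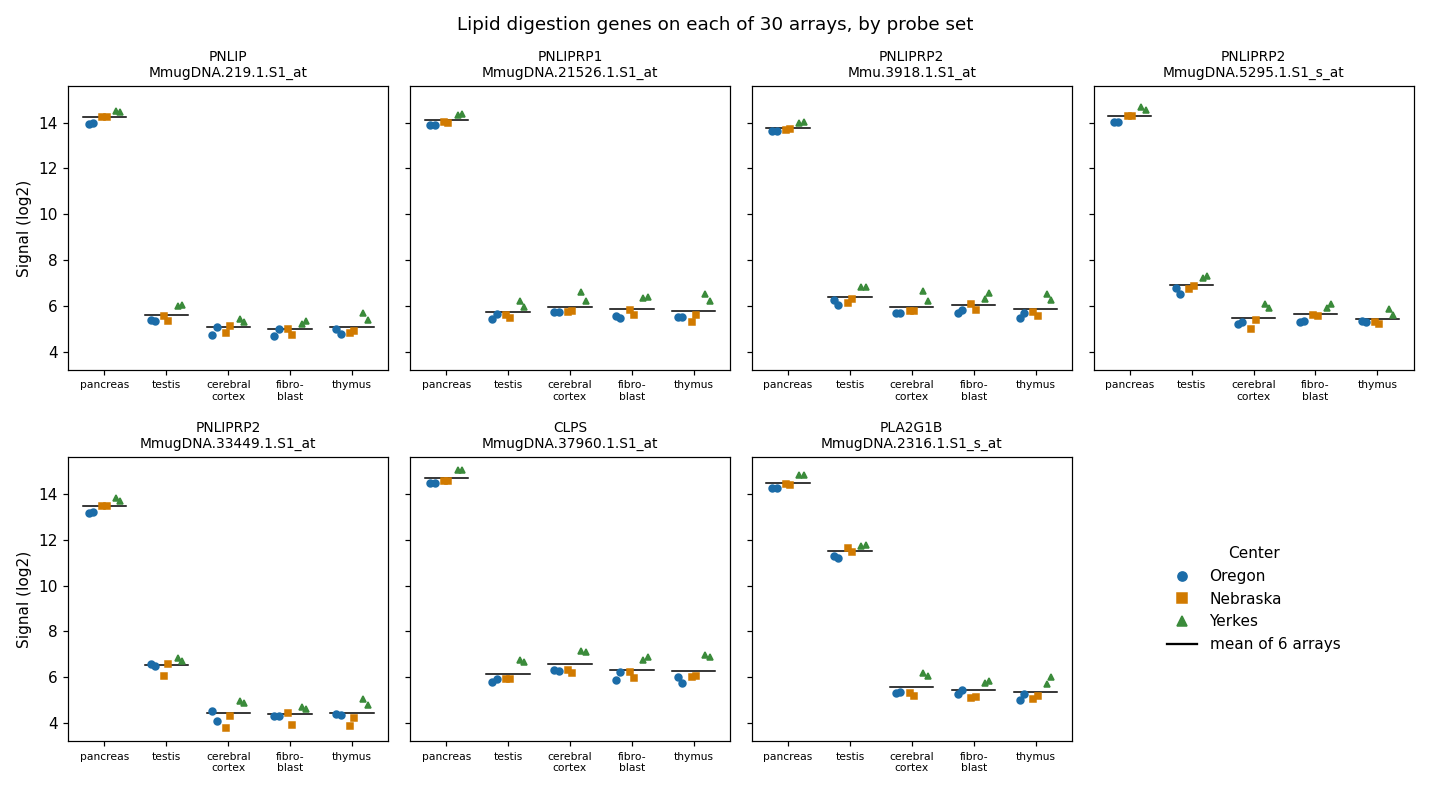
Signal on the log2 scale (y axis) of the 7 probe sets on each of 30 arrays by tissue (x axis), with centers as colours and a line at the mean of 6 arrays. All pancreas arrays lie above 13, and only for PLA2G1B do the testis arrays, between 11.22 and 11.77, approach them.

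PNLIPRP1, a close relative of pancreatic lipase for which little lipase activity has been found in other mammals, followed the same order. Its signal was 13.89, 14.01 and 14.37 in pancreas. The corresponding values were 5.73, 5.77 and 6.61 in cerebral cortex, 5.49, 5.73 and 6.38 in fibroblast, 5.43, 5.62 and 6.22 in testis and 5.28, 5.56 and 6.52 in thymus. Pancreas exceeded cerebral cortex, the next tissue, by 8.12 (SE 0.0851). Among the other tissues no neighbours in the order of PNLIPRP1 differed beyond their spread once center means were taken away, and the same was true of CLPS.

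PNLIPRP2, which in other mammals also cleaves galactolipids and phospholipids, was bright in pancreas with each of its 3 probe sets. Its leading probe set stood at 13.62, 13.69 and 14.01 in pancreas, MmugDNA.5295.1.S1_s_at at 14.01, 14.30 and 14.66 and MmugDNA.33449.1.S1_at at 13.18, 13.46 and 13.82. Testis was the next tissue for all 3, with differences of 7.38 (SE 0.0822), 7.39 (SE 0.0796) and 6.92 (SE 0.114) in the same order. The 3 probe sets thus gave similar differences of pancreas from testis. From cerebral cortex, pancreas differed by 7.80, 8.82 and 9.03 in the same order. The differences of testis from cerebral cortex, fibroblast and thymus were not similar either, as described below.

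Pancreatic phospholipase A2 was the only one of the 5 genes with a high signal in a second tissue. On the Oregon, Nebraska and Yerkes arrays PLA2G1B read 14.26 and 14.26, 14.41 and 14.40, and 14.81 and 14.82 in pancreas. In testis it read 11.30 and 11.22, 11.62 and 11.46, and 11.72 and 11.77. It stayed between 5.21 and 6.17 in cerebral cortex, between 5.10 and 5.85 in fibroblast and between 4.99 and 6.01 in thymus. The testis arrays therefore formed a separate level below pancreas and far above the other tissues. Pancreas exceeded testis by 2.98 (SE 0.0839), which is 7.88-fold. In pancreas PLA2G1B was within 0.261 to 0.428 of the brightest probe set of the array, and whether an upper limit held the reading down was not tested. Testis exceeded cerebral cortex by 5.95, which is 62-fold. PLA2G1B was above the array median on all 6 testis arrays and below it on all 18 arrays of cerebral cortex, fibroblast and thymus, whose ranges overlapped.

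A high testis signal had chosen PLA2G1B alone, so the other genes were tested in the testis contrast. Their choice as high in pancreas was also against testis, so these tests were not independent of that choice. Testis was set against cerebral cortex, fibroblast and thymus with the same limits, and 1.84% of all probe sets were called higher and 0.176% lower. Only 2 of the 6 other probe sets were called higher, both of PNLIPRP2. MmugDNA.33449.1.S1_at had a lowest, median and highest signal of 6.07, 6.57 and 6.85 in testis, against 3.88, 4.38 and 5.04 in thymus, the highest of the 3 tissues by its mean. All testis arrays lay above all arrays of those tissues, by 2.09 in the means (SE 0.114, limma adjusted p = 9.11e-17). For MmugDNA.5295.1.S1_s_at the values were 6.53, 6.84 and 7.32 in testis, against 5.30, 5.58 and 6.08 in fibroblast. The difference was 1.27 (SE 0.0796, limma adjusted p = 2.55e-15).

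The leading PNLIPRP2 probe set had 6.02, 6.28 and 6.84 in testis, against 5.69, 5.97 and 6.57 in fibroblast. The values overlapped over the centers together, but not once center means were taken away. Its difference was 0.34 (SE 0.0822, limma adjusted p = 5.56e-04, and 0.202 without a term for center), under the minimum of 1, while the mean of the 3 probe sets differed by 1.26 (adjusted p = 2.32e-15). The PNLIPRP2 probe sets therefore disagreed on whether testis reached the limit of a call, and the cause was not tested. PNLIP was above thymus by 0.52 in testis (SE 0.0819, limma adjusted p = 1.88e-06), also under the minimum. The mean testis signals of PNLIPRP1 and CLPS were the lowest of the tissues. CLPS was 0.40 below cerebral cortex in testis (SE 0.0752, limma adjusted p = 2.45e-05), 0.18 below fibroblast (adjusted p = 0.0392) and 0.12 below thymus (adjusted p = 0.176). PNLIPRP1 was 0.25 below cerebral cortex in testis (SE 0.0851, limma adjusted p = 0.0118), 0.15 below fibroblast (adjusted p = 0.126) and 0.06 below thymus (adjusted p = 0.596), and neither gene met the limits of a call.

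The other enzymes of acinar cells gave no such testis signal. None of the 16 acinar genes was called higher in testis with any of its probe sets. Only 1.84% of all probe sets were called, so the absence of calls among 16 genes says little by itself. RNASE1 in testis was 1.42 above fibroblast and 1.26 above thymus, but 1.49 below cerebral cortex. The 16 genes had a median difference in testis from the highest of the 3 tissues of -0.26, beside -0.33 over all probe sets. Their summed linear signal was 165900 to 236900 in pancreas and 1036 to 1892 in testis. It was 1452 to 2534 in cerebral cortex, 1022 to 1670 in fibroblast and 1089 to 1919 in thymus. Over the centers together testis overlapped with all 3, but cerebral cortex was higher at both ends of its range. Center means were not taken away for this sum. Carboxypeptidase A1 (CPA1), for example, had a mean of 14.38 in pancreas and 6.09 in testis, and the trypsinogen PRSS2 had 14.84 in pancreas and 5.33 in testis.

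**Figure D2:**
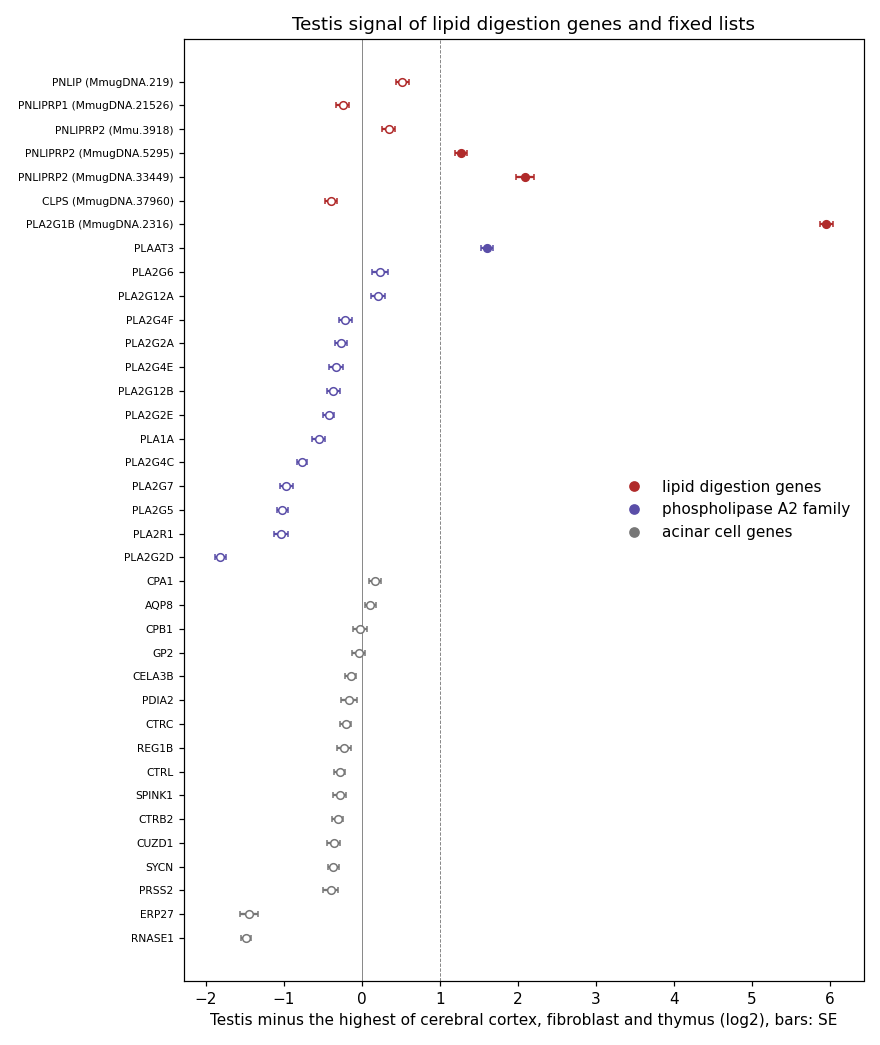
Difference on the log2 scale (x axis, bars are SE) between testis and the highest of cerebral cortex, fibroblast and thymus for the 5 lipid digestion genes by probe set, the phospholipase A2 family and acinar cell genes (y axis). Filled points were called higher in testis, the dashed line marks the minimum of 1, and PLA2G1B at 5.95 lies apart from all others.

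Over all 14132 genes, PLA2G1B had the largest difference from the 3 other tissues that pancreas and testis shared, judged by the smaller of its differences. Only 10 genes (0.0708%) exceeded cerebral cortex, fibroblast and thymus by at least 2 in both tissues, while 120 did so in pancreas and 108 in testis. PLA2G1B exceeded the highest of the 3 tissues by 8.93 in pancreas and by 5.95 in testis. The next gene, the imprinted noncoding RNA H19, did so by 2.95 in pancreas and 3.84 in testis. The epithelial adhesion molecule EPCAM had the next highest pancreas difference of the 10, with 4.99 in pancreas and 2.22 in testis. The others were LOC708877, LGR4, GATM, SERPING1, GSTA1, DLK1 and ACSM3, and their smaller difference lay between 2.04 and 2.71. PLA2G1B was chosen for these levels, so its rank is a description.

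**Figure D3:**
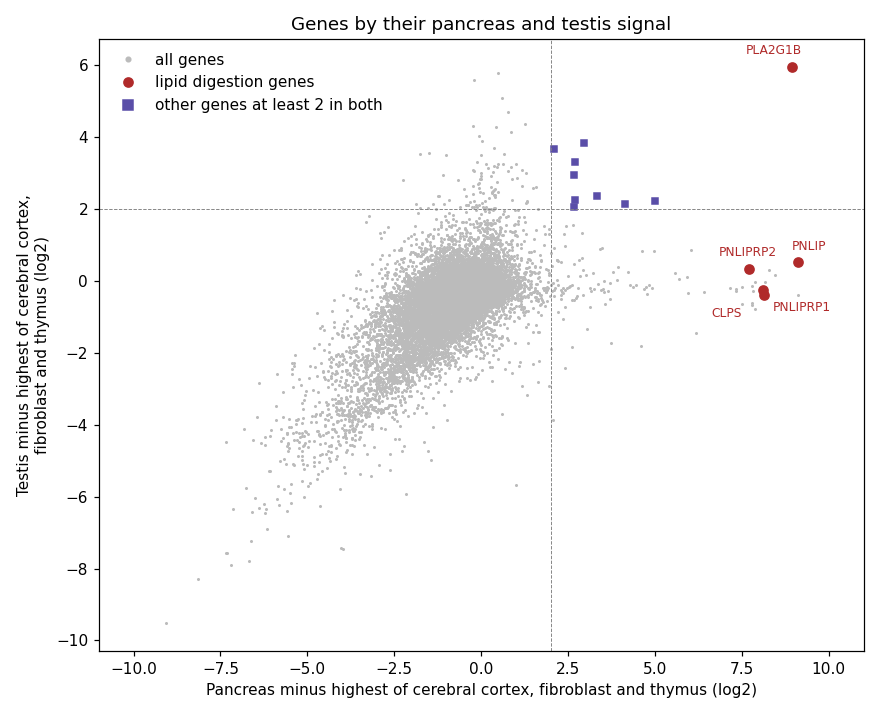
Difference on the log2 scale from the highest of cerebral cortex, fibroblast and thymus in pancreas (x axis) and in testis (y axis) for 14132 genes, each by its probe set of highest mean signal. PLA2G1B lies at 8.93 and 5.95, while the other 4 lipid digestion genes lie far to the right with testis differences from -0.40 to 0.52.

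The pattern over the 15 means of tissue and center, with each center mean taken away, was nearly the same for PNLIP and PNLIPRP2 (Pearson r = 0.9994) and for PNLIPRP1 and CLPS (r = 0.9997). PLA2G1B had an r of 0.7714 with CLPS and 0.8233 with PNLIP. These points share the RNA of 5 tissues and are given without a test. The genes most like PNLIP were LOC694691 (r = 0.9993), the protease CPA1 (0.9990), the water channel AQP8 (0.9986), the growth factor EGF (0.9981) and the zymogen granule protein GP2 (0.9980). EGF had a mean of 9.07 in pancreas and 5.50 in testis, since this measure compares the shape of a pattern and not its size. Those most like PLA2G1B were RAB17 (r = 0.9925), a small GTPase of epithelial cells, ITPRID2 (0.9915), ANGPTL4 (0.9909), a secreted inhibitor of lipoprotein lipase, GSTA1 (0.9902) and ACSM3 (0.9902). Their levels were closer between the tissues than those of PLA2G1B, with 10.58 in pancreas and 9.68 in testis for ITPRID2 and 8.55 in pancreas and 8.06 in testis for ANGPTL4.

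The centers labelled and hybridized the same RNAs, and the pancreas difference of the 5 genes was then compared between them. Here pancreas was set against the mean of the other 4 tissues at each center. PNLIP differed by 8.95 at Oregon, 9.20 at Nebraska and 8.92 at Yerkes (SE 0.107 each). The corresponding values were 8.32, 8.39 and 8.05 for PNLIPRP1 and 8.45, 8.49 and 8.13 for CLPS. They were 7.49, 7.65 and 7.44 for PLA2G1B, lower because testis was among the other tissues. Yerkes gave the smallest difference for PNLIP, PNLIPRP1, CLPS and PLA2G1B, but for PNLIP and PLA2G1B it was within 1 SE of Oregon. Unlike the other PNLIPRP2 probe sets, MmugDNA.33449.1.S1_at was smallest at Oregon, with 8.30, against 8.43 at Yerkes. The PNLIPRP2 probe sets ranged from 7.47 to 8.81 over the centers.

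None of the 21 differences between centers in pancreas, 7 probe sets by 3 pairs of centers, passed an adjusted p of 0.05. Of all probe sets, 9.87% passed between Nebraska and Oregon, 6.39% between Yerkes and Oregon and 8.86% between Yerkes and Nebraska. The closest was CLPS, whose pancreas difference was lower by 0.36 at Yerkes than at Nebraska (SE 0.124, limma adjusted p = 0.0790). It passed when dim probe sets were left out (adjusted p = 0.0323), with an intensity trend in the prior (0.0356) and without fibroblast aliquot 1 of Nebraska (0.0446).

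For testis, set against the mean of cerebral cortex, fibroblast and thymus, 1 of 21 differences between centers passed. PLA2G1B differed by 5.83 at Yerkes (SE 0.0825), 6.37 at Nebraska and 5.99 at Oregon. Its mean over cerebral cortex, fibroblast and thymus, all below the array median, was 5.92, 5.17 and 5.27 in the same order. The Yerkes difference was 0.55 lower than that of Nebraska (SE 0.117, limma adjusted p = 0.0162), beside 2.07% of all probe sets that passed in this pair. Nebraska exceeded Oregon by 0.39 (SE 0.117, adjusted p = 0.0712), where 3.77% of all probe sets passed. Yerkes was 0.16 below Oregon (SE 0.117, adjusted p = 0.83), where 0.237% passed. The call was lost when all 30 arrays were quantile normalized together (-0.26, adjusted p = 0.353), and without testis aliquot 1 of Nebraska (0.111) or testis aliquot 1 (0.118) or 2 (0.0698) of Yerkes. The testis difference of PNLIPRP2 by MmugDNA.33449.1.S1_at was 1.94 at Yerkes, 2.22 at Nebraska and 2.19 at Oregon, and in the same order it was 1.36, 1.46 and 1.36 by MmugDNA.5295.1.S1_s_at.

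**Figure D4:**
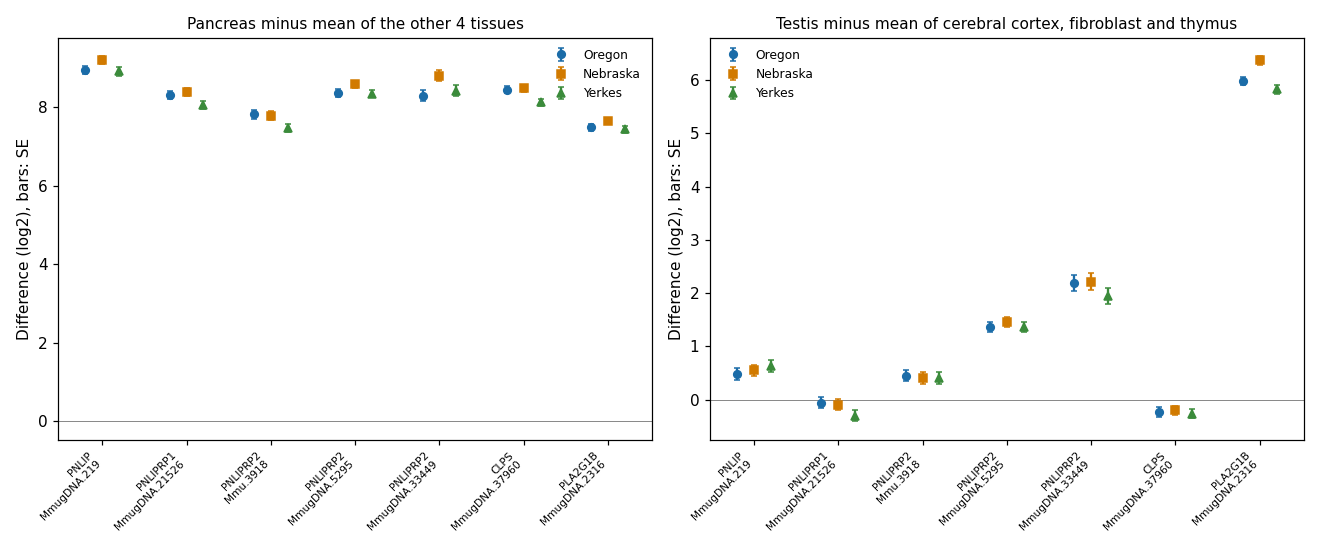
Difference on the log2 scale (y axis, bars are SE) of pancreas from the mean of the other 4 tissues (left) and of testis from the mean of cerebral cortex, fibroblast and thymus (right) for the 7 probe sets (x axis) at each center. The pancreas differences lie between 7.44 and 9.20, and the testis difference of PLA2G1B is 6.37 at Nebraska and 5.83 at Yerkes.

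For these 7 probe sets the median difference between the 2 aliquots of a center was smallest in pancreas. Each tissue had 3 pairs of aliquots, 1 per center, which gave 21 values that were not independent. Their absolute difference had a median of 0.0113 and a highest value of 0.141 in pancreas. The medians were 0.138 in testis, 0.121 in cerebral cortex, 0.154 in fibroblast and 0.231 in thymus. Single probe sets could depart from this. At Yerkes MmugDNA.33449.1.S1_at differed by 0.141 in pancreas, 0.138 in testis, 0.107 in cerebral cortex, 0.0943 in fibroblast and 0.245 in thymus. The order of the medians did not hold over all probe sets, where the median difference between the aliquots of a center was 0.12 to 0.133 in pancreas, 0.0729 to 0.142 in testis, 0.084 to 0.153 in cerebral cortex, 0.118 to 0.132 in fibroblast and 0.0828 to 0.113 in thymus. On the pancreas arrays these probe sets were among the brightest, within 0.0597 to 1.40 of the highest signal of their array. The part of this brightness in the small differences was not tested.

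Of 80 other genes of fat digestion and its regulation in 4 lists, 59 were measured by a probe set of 1 symbol, 27 of them by several. By the leading probe set, 6 were called higher in pancreas and none lower, against 1.29% and 1.22% of all probe sets. With any probe set counted there were 7, the seventh being lipoprotein lipase, and no gene of the fat absorption list was among them. The median difference of the 59 genes from the highest other tissue was 0.03, beside -0.31 over all probe sets. In testis 4 were called higher and none lower, against 1.84% and 0.176% of all probe sets. The testis median was -0.34, beside -0.33 over all probe sets.

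Of the 14 other lipases and cofactors, none was called higher in pancreas by its leading probe set, but the 4 probe sets of LPL disagreed. LPL is lipoprotein lipase, which clears triglyceride from lipoproteins in the capillaries of fat and muscle, and it is named after its values were seen. With MmuSTS.386.1.S1_at it averaged 10.05 in pancreas, against 8.49 in thymus, a difference of 1.56 (SE 0.0689, limma adjusted p = 2.54e-19). With MmugDNA.10451.1.S1_at it averaged 9.68 in pancreas, against 7.92 in thymus, a difference of 1.77 (SE 0.0954, limma adjusted p = 4.62e-17). The leading probe set gave 7.58 in pancreas, against 8.85 in testis, and MmugDNA.6198.1.S1_at gave 6.98 in pancreas, against 7.87 in testis. The cause of the disagreement was not tested. PNLIPRP3, the gene next to PNLIP, had a mean of 5.38 in pancreas and 5.44 in testis, and no call in either tissue. LIPH, a phospholipase A1 specific for phosphatidic acid, was called higher in testis, where its mean was 8.13, against 6.52 in cerebral cortex, a difference of 1.62 (SE 0.0879, limma adjusted p = 5.52e-17). The bile salt dependent lipase CEL was not analysed here.

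Of 14 measured genes of the phospholipase A2 family and its receptor, PLA1A alone was called higher in pancreas. It is a phospholipase A1 for phosphatidylserine and had a mean of 7.55 in pancreas, against 5.93 in thymus, a difference of 1.62 (SE 0.0859, limma adjusted p = 2.74e-17). PLAAT3, an intracellular phospholipase and acyltransferase, was called higher in testis by 1.60 (SE 0.0787, limma adjusted p = 3.82e-18). It averaged 10.43 in testis, against 8.83 in cerebral cortex. None of the 18 genes of fat absorption was called in either tissue. Over all probe sets 1.29% were called higher in pancreas and 1.84% in testis, so this absence says little by itself. The fatty acid transporter CD36 and the triglyceride synthesis enzymes DGAT2 and MOGAT3, chosen after their values were seen, were the nearest to a call in pancreas, by 0.82 (SE 0.12), 0.87 (SE 0.0959) and 0.79 (SE 0.0752).

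**Figure D5:**
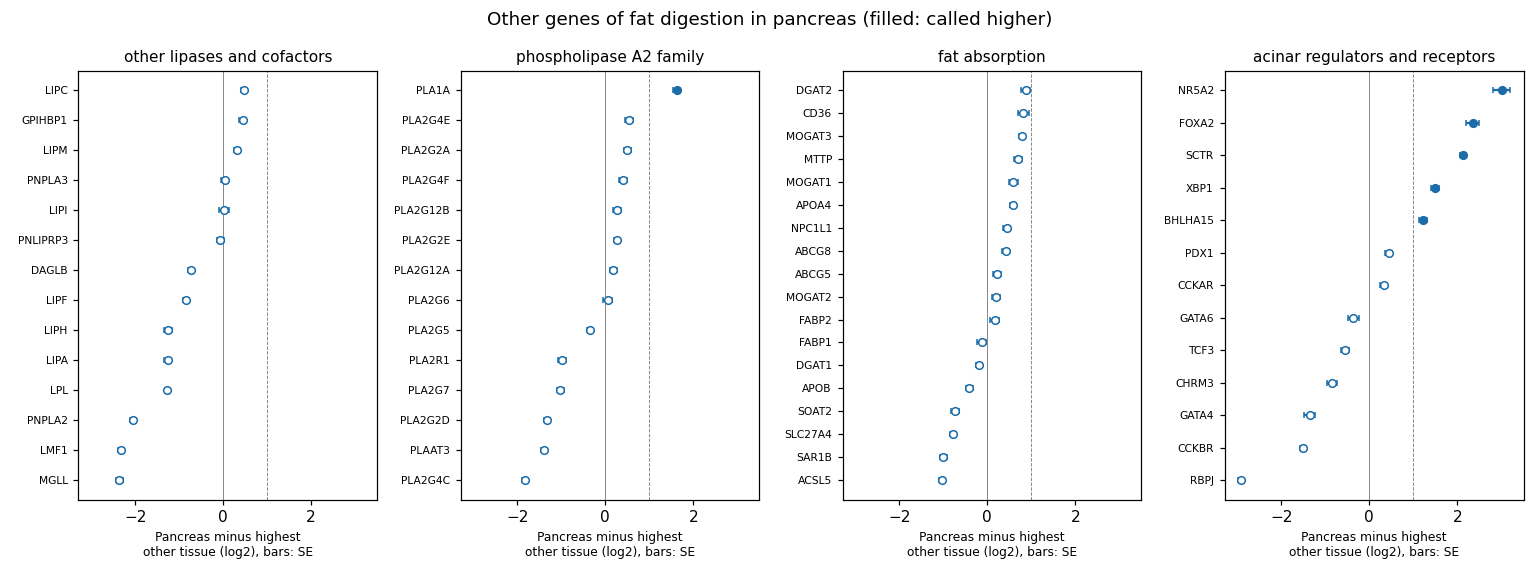
Difference on the log2 scale (x axis, bars are SE) between pancreas and the highest other tissue for the 59 measured genes (y axis) of 4 lists of fat digestion, each by its leading probe set. Filled points were called higher in pancreas: PLA1A and 5 regulators led by NR5A2 at 3.01.

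Among 13 measured regulators and receptors of acinar cells, 5 were called higher in pancreas. The nuclear receptor NR5A2, which drives acinar enzyme genes in mouse, averaged 8.31 in pancreas and 5.30 in testis, the next tissue, and differed by 3.01 (SE 0.188, limma adjusted p = 2.70e-15). FOXA2, a transcription factor of endoderm, exceeded the next tissue by 2.35 (SE 0.144). SCTR, the secretin receptor, which is known mainly from duct cells, exceeded it by 2.12 (SE 0.0689). XBP1, which expands the secretory apparatus, exceeded it by 1.496 (SE 0.0903) with a mean of 11.47 in pancreas. The fifth was BHLHA15, a factor of secretory cells named after its value was seen, with 1.22 (SE 0.0863). In testis the factors GATA4 and GATA6, which also act in gonads, were called higher by 2.25 (SE 0.123) and 1.99 (SE 0.122). The testis call left pancreas out of the comparison. GATA6 averaged 8.45 in pancreas and 8.81 in testis, and its pancreas mean exceeded that of fibroblast by 1.63. For GATA4 the difference of pancreas was -1.35 from testis and 0.897 from cerebral cortex. The cholecystokinin receptor CCKAR, also chosen after its value was seen, differed by 0.33 (SE 0.0765) in pancreas and was not called.

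Fat tissue lies among the lobules of the pancreas, so 3 genes of fat cells were set beside these lists. The fatty acid binding protein FABP4 was called higher in pancreas, by 1.33 over thymus. The hormones ADIPOQ and LEP, which are more particular to fat cells, gave a divided picture by probe set. ADIPOQ was called higher in pancreas by 1 of its 3 probe sets, with 7.50 in pancreas, against 5.97 in thymus, a difference of 1.53 (SE 0.0828, limma adjusted p = 5.10e-17). Its leading probe set was at 6.72 in pancreas, against 8.23 in fibroblast. LEP was not called by either probe set, and it stood 0.65 above the next tissue in pancreas by the dimmer one (SE 0.0643) and 1.09 below thymus by the leading one (SE 0.0687). The summed linear signal of the 3 genes by their leading probe sets was 2045 to 2339 in pancreas, 383.9 to 591.8 in testis, 259.6 to 347.8 in cerebral cortex, 342.8 to 639.3 in fibroblast and 1172 to 1408 in thymus. This sum was mostly FABP4, which averaged 10.94 in pancreas. By their leading probe sets ADIPOQ and LEP had their lowest mean in pancreas, 6.72 and 6.70. The mean log2 signal of the 3 genes was 7.89 to 8.43 in pancreas and 8.35 to 8.67 in thymus. The part of fat cells in the lipid results was not tested.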

How the data were processed

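The deposited values were log2 signals. Per the methods, the authors corrected background with the MAS 5.0 procedure, quantile normalized the arrays of each center separately and summarized all 30 arrays by RMA. Gene symbols came from the GEO platform annotation, where 24956 probe sets had 1 symbol, 361 several and 27449 none, and 99 control probe sets were left out. Differences were tested in R 4.3.3 with limma 3.58.1 on 52766 probe sets, with tissue and center as terms, or with 15 means of tissue and center for differences between centers, and Benjamini-Hochberg adjustment within each contrast. The script was tested on simulated data. A gene was represented by its probe set of highest mean signal. The genes, lists and tests were chosen with earlier results of these data known. Named genes were all probe sets of the 5 genes, up to 4 called genes of each list and direction, the 5 genes most like PNLIP and PLA2G1B, and the 10 genes at least 2 above 3 tissues in both pancreas and testis. The p-values cover technical spread only, and the number of arrays limits the precision. Alternatives were another normalization, filter, prior, center term, minimum difference and probe set rule, and leaving out arrays or centers. Sequences were not used here.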

Additional observations from a re-analysis of the deposited data

Results flagged for a closer look

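The testis difference of PLA2G1B from the mean of cerebral cortex, fibroblast and thymus varied between centers that used the same RNA. It was 0.55 lower at Yerkes than at Nebraska (-0.5458 on the log2 scale, SE 0.117, limma adjusted p = 0.0162, n = 2 arrays of each tissue at each center), with 5.83 at Yerkes and 6.37 at Nebraska. Both testis arrays were higher at Yerkes (11.72 and 11.77) than at Nebraska (11.62 and 11.46), while the mean of the 3 other tissues was 5.92 at Yerkes and 5.17 at Nebraska. PLA2G1B was below the array median on every array of those 3 tissues. The array medians outside pancreas also differed, at 6.58 to 6.76 at Yerkes and 5.97 to 6.08 at Nebraska. The difference was -0.26 (adjusted p = 0.353) when all 30 arrays were quantile normalized together. It also missed the threshold without testis aliquot 1 of Nebraska (adjusted p = 0.111) and without testis aliquot 1 (0.118) or 2 (0.0698) of Yerkes. The cause was not tested. None of the 35 groups of 6 arrays of these probe sets held an array that stood apart by Dixon's criterion. Center means were not taken away for this, and differences between centers widened the ranges, so the criterion could miss such an array.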

How the results depend on the processing

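Of all alternative values, 1186 were rated unchanged, 22 counts or differences moved, 5 became called, 10 were no longer called (6 of them single genes under a minimum of 2) and 1 was reversed. A test or call was rated unchanged when it kept its direction and side of the limit. A count was rated so within a fixed ratio of the main count, so it could differ somewhat. Differences of the 5 genes were rated so when they moved by less than the SD of the tissue, which included the spread between centers. After quantile normalization of all 30 arrays the pancreas difference was 8.31 for PNLIP, 7.87 for PNLIPRP1 and 7.10 for PNLIPRP2 (leading probe set), there were 0 testis differences between centers among the 21 (limma), and that of PLA2G1B was -0.26 for Yerkes minus Nebraska (adjusted p = 0.353) and 0.0778 in place of -0.16 for Yerkes minus Oregon. With only the brighter probe sets, at or above the median of mean signal, which left fewer genes, 3 fat digestion genes were called higher in pancreas. That setting and an intensity trend with a robust prior each gave 1 call between centers in pancreas and 2 in testis, where PLA2G1B passed for Nebraska minus Oregon (0.39, adjusted p = 0.0244 and 0.0231). With a gene taken as the mean of its probe sets, PNLIPRP2 was 1.255 higher in testis and became called (adjusted p = 2.32e-15), against 0.34 by the leading probe set. Counting any probe set, also chosen after seeing the data, gave 7 fat digestion genes higher in pancreas, with LPL. With no minimum difference 25 fat digestion genes were higher and 2 lower in pancreas (25.2% and 9.98% of all probe sets), 7 higher and 3 lower in testis (9.24% and 6.77%), and 1 acinar gene, CPA1, was higher in testis. With a minimum of 2 there were 3 higher in pancreas and 1 in testis (0.409% and 0.462%). Leaving out single arrays gave 0 to 1 calls between centers in pancreas and 0 to 2 in testis, with PLA2G1B at 0.304 to 0.467 for Nebraska minus Oregon and -0.627 to -0.465 for Yerkes minus Nebraska. Without the pancreas arrays, a setting chosen after seeing the data, PLA2G1B in testis stayed at 5.95, 4 fat digestion genes were higher, and Yerkes minus Nebraska had an adjusted p of 0.0318. Correlations of aliquot differences between tissues were -0.0592 to 0.0928 at Oregon and Nebraska, so aliquot numbers did not pair those arrays. At Yerkes they were -0.304 to 0.349, and 3 of 10 were above 0.1. With the replicate block the counts were 6 and 4 and PLA2G1B had an adjusted p of 0.0236 for Yerkes minus Nebraska. Signals below the array median, as for PNLIP and PNLIPRP1 outside pancreas, are near background and limit what small differences show.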
